A study of Mus musculus with 24 samples.

Results

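The genes described here are 33 genes that make, take up, store or export cholesterol, measured in hepatocytes, the parenchymal cells of the liver. They were taken from a list of gene names. All 33 were found among the 55421 genes of the count table, and all 33 were among the 13583 genes with enough reads to be tested. They comprise 19 enzymes of synthesis (8 of the mevalonate pathway and 11 that act from squalene onwards) and 14 other genes (5 that control the pathway and 9 for transport and esterification).

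The study asked how age changes the response of the liver to a high-fat diet. Hepatocytes were isolated by liver perfusion from 24 male mice, and polyA RNA was sequenced for each mouse. There were 4 groups of 6 mice: young and old mice on a normal diet (young ND, old ND) and young and old mice on a high-fat diet with 60% of energy from fat (young HFD, old HFD), each kept on its diet for 9 weeks. The sample labels give an age of 6 months and the substrain C57BL/6N for young mice, and 24 months and C57BL/6J for old mice, which leaves age and substrain joined, and the 2 cannot be told apart. The labels and the study's methods name different products as the normal diet and give different ages, so neither the exact control diet nor the exact ages are settled here, and the labels were followed. Libraries came in 2 batches named in the labels, with 3 mice of each group in each batch except old ND, which had 2 in batch 1 and 4 in batch 2.

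Cholesterol is built from acetyl-CoA through mevalonate, isoprenoid units, squalene and a series of sterols. The transcription factor SREBP-2 (Srebf2) turns on most of these enzymes when sterols in the endoplasmic reticulum are low: its escort Scap is then no longer held back by the retention proteins Insig1 and Insig2 and carries it to the Golgi for cleavage. Excess sterol is esterified, moved by sterol carriers, or exported by ABC transporters that answer to the oxysterol receptor LXR, and the liver is the organ that sends surplus cholesterol to bile.

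Total counts per young mouse ran from 15134973 to 22185069 on ND and 15458168 to 17807883 on HFD, and per old mouse from 13692834 to 17676870 on ND and 9200332 to 13517632 on HFD, so the old HFD libraries were the least deep. Hepatocyte markers (the sum of Alb, Ttr, Apoa1, Cps1 and Pck1) read 62650 to 149500 CPM (counts scaled to a common library size) in 23 of 24 mice and 38040 in old ND replicate 4, which also had the highest macrophage marker sum, 1214 CPM. Old HFD replicate 2 lay apart from its group in Scarb1 and Abcg5. Counts of called genes are therefore also given without these mice. Replicate 2 was thus picked from values of genes described here. By median correlation with its own group over all tested genes, old HFD replicate 4 (0.890) lay no closer than replicate 2 (0.893), and it was kept. Exons of Fdps and Tm7sf2 overlap another gene on the same strand, so their counts are uncertain whether or not strand was used in counting. Those of Scap, Hmgcs1, Idi1, Ggps1, Fdft1, Lss, Cyp51, Npc1, Abcg5 and Abcg8 overlap one on the opposite strand. Counts of the latter are uncertain where strand was not used. In bulk samples, fewer cells of a type and less RNA per cell cannot be told apart.

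Promoter sequence was matched for 26 of the 33 genes in RefSeq on GRCm38.p6, as the window from 250 bases before to 50 bases after each annotated start. No window was given for Fdft1, Fdps, Npc1, Scarb1, Soat2, Sqle and Stard4. The letters CCAAT, which NF-Y binds, stood on either strand in 23 of the 26 genes and in 15 of 16 synthesis enzymes, against 41.1% of all 27025 genes with such a window. The letters GGGCGG, which Sp1 binds, stood in 21 of 26 and in 14 of 16, against 38.2%. The classical sterol regulatory element, searched with 1 free base, stood in 0 of 26 and in 0.27% of all genes, and the direct repeat of LXR with 4 free bases in 0 of 26 and 0.0148%. The windows without GGGCGG belonged to Pmvk, Ggps1, Lcat, Abcg5 and Abcg8, and the windows without CCAAT to Abca1, Acat2 and Scap. A match of letters is a description and not a site. The sterol element and LXR strings are so rare that 0 of 26 cannot show absence. Near matches to them were not counted.

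The stretches printed here show the range, all on the plus strand of GRCm38.p6, with CCAAT and GGGCGG on either strand in capitals. Pmvk, the enzyme called with diet in both young and old mice, holds 1 CCAAT and 0 GGGCGG in the 250 bases before its RefSeq start (chr3:89454291-89454540). Hmgcs1, the enzyme that makes HMG-CoA, holds 3 and 2 in the same span (chr13:119690101-119690350). Abcg5 and Abcg8 are read in opposite directions, and 109 bases lie between the start of Abcg5 and the RefSeq start of Abcg8 (chr17:84683012-84683120), with 0 and 0, although GENCODE starts Abcg8 further back, inside Abcg5.
Pmvk upstream: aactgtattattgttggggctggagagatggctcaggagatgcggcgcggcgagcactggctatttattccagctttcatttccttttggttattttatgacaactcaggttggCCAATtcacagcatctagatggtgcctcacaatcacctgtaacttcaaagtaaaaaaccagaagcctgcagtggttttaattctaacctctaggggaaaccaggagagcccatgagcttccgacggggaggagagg
Hmgcs1 upstream: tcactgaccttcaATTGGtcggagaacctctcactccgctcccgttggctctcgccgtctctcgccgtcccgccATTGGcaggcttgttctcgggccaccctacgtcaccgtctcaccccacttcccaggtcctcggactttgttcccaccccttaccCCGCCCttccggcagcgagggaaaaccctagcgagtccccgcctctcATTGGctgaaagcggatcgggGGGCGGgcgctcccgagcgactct
Abcg5-Abcg8 between starts: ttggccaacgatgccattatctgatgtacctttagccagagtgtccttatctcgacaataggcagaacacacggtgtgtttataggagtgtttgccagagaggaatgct

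Levels were compared between genes as CPM per kb of annotated exons, since longer transcripts give more reads. The length was the union of all annotated exons of a gene, so the order depends on the annotation. Lcat, which esterifies cholesterol on lipoproteins in plasma, had the highest median over the 24 mice, 216 CPM per kb (range 136 to 282). Sc5d, a desaturase near the end of the sterol pathway, followed with 175 (72.8 to 216), then Insig1 with 155 (89.4 to 226) and Hmgcs1 with 121 (60.1 to 215). Their ranges over the 24 mice overlapped, and differences between genes were not tested. Among the enzymes, Ebp, a sterol isomerase, had a median of 95.4 and Cyp51, the sterol demethylase, 64.3, while Mvk, the first kinase of mevalonate, had 9.26, Lss, which closes the sterol rings, 6.70 and Ggps1, which makes a longer isoprenoid, 1.76. Lss, with 10787 bases of such exons, had a median of 72.3 CPM before this division, near the 73.1 of Idi1 with 3505. Abcg5 and Abcg8, the paired sterol exporters towards bile, read 24.2 and 21.6. Abca1, which loads cholesterol on to apolipoproteins, read 17.4 and Scarb1, a receptor for HDL, 15.7. Mylip, a ubiquitin ligase that marks lipoprotein receptors for degradation, had the lowest median, 1.18, and as a ratio of highest to lowest the widest range, 0.0439 to 8.93.

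**Figure D1:**
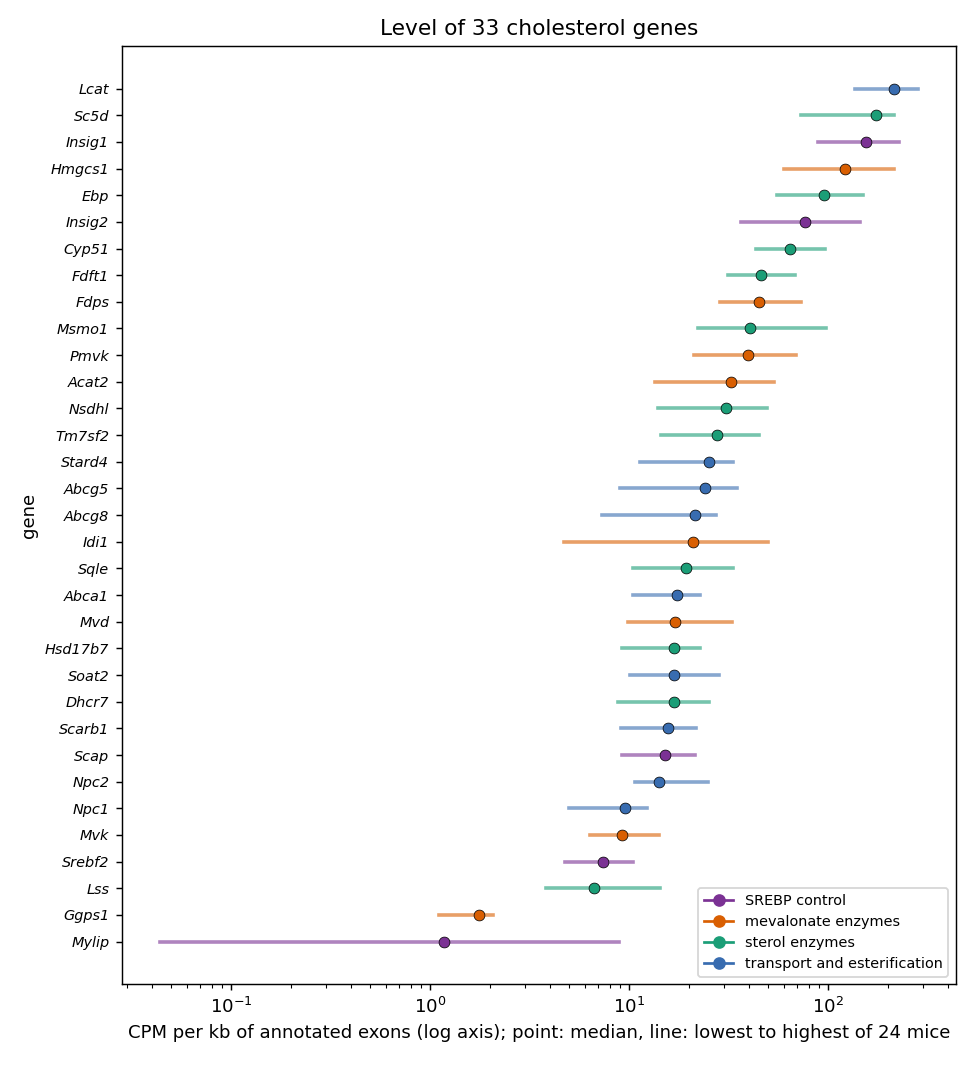
Level of each of the 33 genes in CPM per kb of annotated exons on a log axis, with the median of 24 mice as a point and a line from the lowest to the highest mouse, coloured by role. Lcat (216) and Sc5d (175) head the order, and Mylip (1.18) is lowest and spans the longest stretch of the log axis.

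High-fat diet in young mice changed 2 of the 33 genes (6.06%), against 3.5% of all tested genes (calls here and later are adjusted p-values under 0.05 from edgeR's quasi-likelihood F test, adjusted over all tested genes after Benjamini and Hochberg, with SE the standard error of a log2 fold change). Pmvk, the kinase that adds the second phosphate to mevalonate, fell, and Mylip rose. Of all genes, 1.91% were called higher and 1.59% lower. Among the 19 synthesis enzymes, 1 was called, 7 fold changes were positive and 12 negative, and the median log2 fold change was -0.03, beside 0.01 for all genes. Within batches 4 were positive in batch 1 and 9 in batch 2.

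Pmvk (ENSMUSG00000027952, chromosome 3, 89454541 to 89469013 of GRCm38) read 6.02, 6.20 and 6.55 log2 CPM as the lowest, median and highest of 6 young ND mice, and 5.19, 5.38 and 5.71 in young HFD. Every young HFD mouse lay below every young ND mouse, a separation of groups that 4.83% of all tested genes showed in this comparison. Its level was 1.80-fold lower, a log2 fold change of -0.85 (SE 0.16, 95% interval -1.18 to -0.52, adjusted p = 0.00449, edgeR), with -0.72 in batch 1 and -0.94 in batch 2. The call held in each of 24 fits that left out 1 mouse. With only the mice of these groups in the model 6 genes were called (18.2%, close to the 18.6% of all genes in that fit), adding Scap, Abca1, Abcg5 and Abcg8.

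Mylip (ENSMUSG00000038175, chromosome 13, 45389742 to 45412022) read -1.89, 0.56 and 2.54 log2 CPM in young ND and -0.31, 2.44 and 4.03 in young HFD, so the groups overlapped. These are low levels: 3 to 106 reads per mouse in young ND and 12 to 267 in young HFD. Its log2 fold change was 2.04 (SE 0.48, adjusted p = 0.0204, edgeR), 2.91 in batch 1 and 1.61 in batch 2. The call was lost without young ND replicate 1, 2 or 4 or young HFD replicate 1 or 5, where the log2 fold change ran from 1.73 to 2.02 and adjusted p was up to 0.0570, over a range of 0.0128 to 0.0570 in all 24 such fits. It was also lost without the batch term (1.72, adjusted p = 0.342) and with limma on the deposited FPKM values, where the log2 fold change was 0.25 with a pseudocount of 1 (adjusted p = 0.142) and 1.10 with 0.1 (adjusted p = 0.0595).

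In old mice the high-fat diet again changed 2 of the 33 genes (6.06%), against 3.01% of all genes, of which 1.37% were higher and 1.64% lower. Pmvk fell and Msmo1, the oxidase that begins the removal of methyl groups from position 4 of the sterol ring, rose. Both are synthesis enzymes, so 2 of 19 enzymes were called. The fold changes of 5 enzymes were positive and of 14 negative, with a median of -0.09 on the log2 scale beside -0.01 for all genes, and 4 were positive in batch 1 and 8 in batch 2.

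Pmvk read 5.91, 6.50 and 6.88 log2 CPM in old ND and 5.43, 5.72 and 6.49 in old HFD. Old HFD replicates 1 and 2, at 6.49 and 6.33, lay within the old ND range, and the other 4 mice lay below every old ND mouse. The log2 fold change was -0.62 (SE 0.16, adjusted p = 0.0353, edgeR), -0.59 in batch 1 and -0.74 in batch 2. The call was lost in 9 of 24 fits that left out 1 mouse (young HFD replicate 1, old ND replicates 1, 2, 5 and 6 or old HFD replicates 3 to 6), with fold changes from -0.66 to -0.52 in them and adjusted p from 0.0135 to 0.132 over all 24. It was also lost without the batch term (-0.57, adjusted p = 0.0717), with limma on FPKM (adjusted p = 0.0566 and 0.0559 with pseudocounts of 1 and 0.1) and with only the mice of these groups (adjusted p = 0.293).

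Msmo1 (ENSMUSG00000031604, chromosome 8, 64718139 to 64733792) read 7.32, 7.75 and 8.36 log2 CPM in old ND and 7.74, 8.68 and 9.23 in old HFD. Old HFD replicate 6 had the lowest value, and the other 5 mice, at 8.63 or more, lay above every old ND mouse. The log2 fold change was 0.80, a 1.74-fold rise (SE 0.19, adjusted p = 0.0251, edgeR), 0.69 in batch 1 and 0.79 in batch 2. It was not called without old ND replicate 1 (0.79, adjusted p = 0.0618, from a range of 0.0121 to 0.0618 over the 24 fits), nor without old ND replicate 4 and old HFD replicate 2 together. With only the mice of these groups in the model 0 of the 33 were called, where 0.119% of all genes were. In young mice Msmo1 read 7.10, 7.66 and 8.08 on ND and 7.87, 8.09 and 8.42 on HFD, a log2 fold change of 0.47 (SE 0.19, adjusted p = 0.146) that did not pass.

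**Figure D2:**
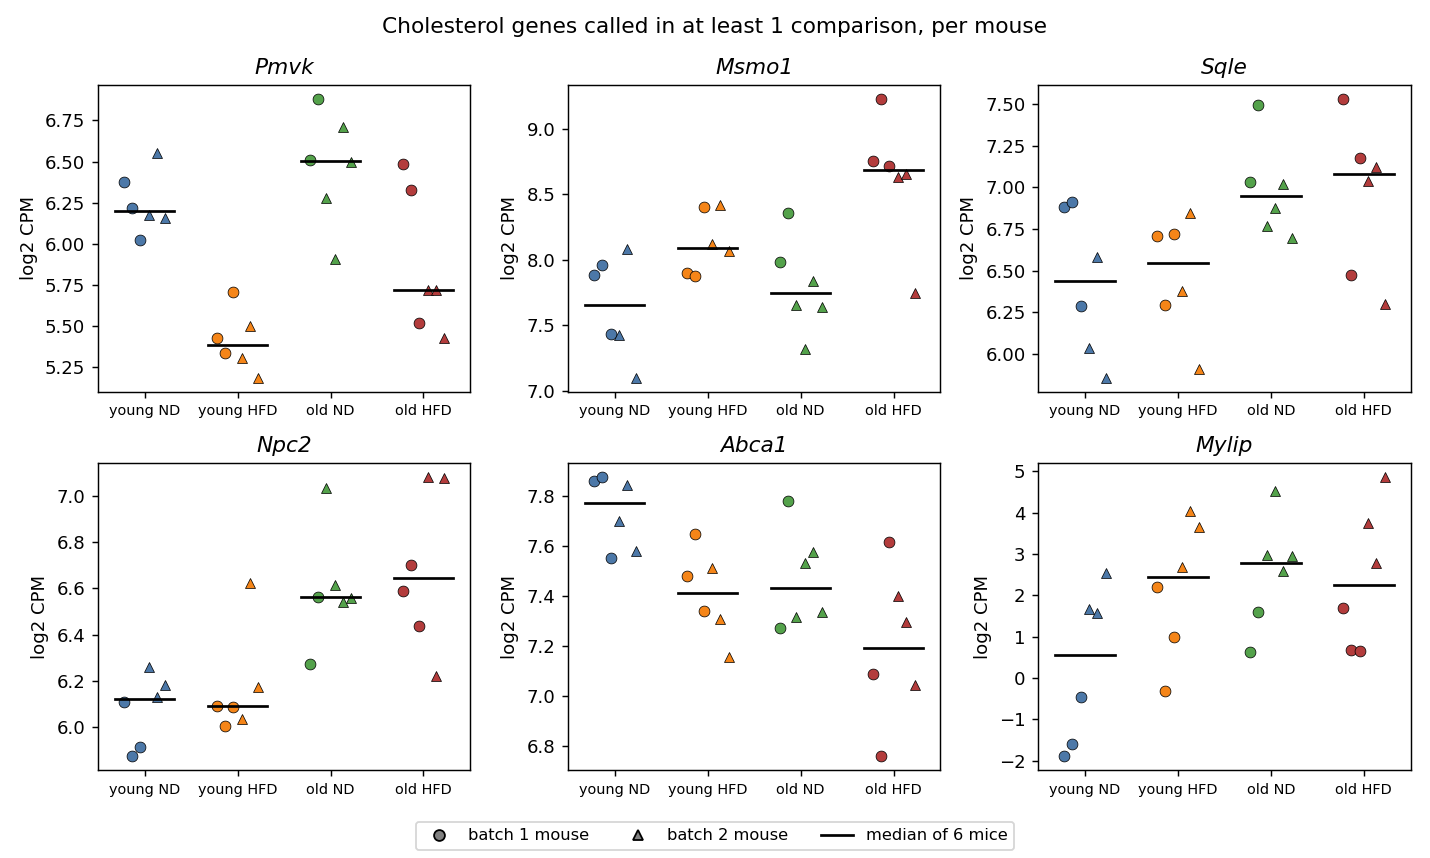
Log2 CPM of the 6 genes called in at least 1 comparison, 1 panel per gene, with circles for batch 1 mice, triangles for batch 2 mice and a bar at the median of 6 mice. Pmvk is lower on HFD in young (medians 6.20 and 5.38) and old mice (6.50 and 5.72), Msmo1 is highest in old HFD (median 8.68), and Npc2 is higher in old than in young mice.

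For no gene of the 33 did the effect of diet differ between old and young mice by the test of the interaction, in which edgeR called 0% of all genes. At an unadjusted p under 0.05 it had 1 of the 33 genes, Mylip, and 9.18% of all genes. DESeq2 called 7 genes in the whole table and 0 of the 33. The interaction was 0.23 (SE 0.23, adjusted p = 0.776) for Pmvk, 0.33 (SE 0.27, adjusted p = 0.729) for Msmo1 and -1.70 (SE 0.64, adjusted p = 0.531) for Mylip on the log2 scale. The 95% interval of that difference was -0.24 to 0.70 for Pmvk and -0.23 to 0.88 for Msmo1. Fold changes with diet had the same sign in young and old mice for 15 of 19 enzymes (78.9%), for 29 of all 33 genes (87.9%) and for 65.3% of all tested genes.

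The remaining enzymes did not pass the test with diet. Lss, lanosterol synthase, had -0.41 in young and -0.54 in old mice (adjusted p = 0.307 and 0.162, edgeR), and Acat2, which joins acetyl units at the start of the route, had -0.39 and -0.44 (adjusted p = 0.316 and 0.251). Ebp had 0.07 in young and 0.46 in old mice (adjusted p = 0.817 and 0.0622). Idi1, which converts one isoprenoid unit to the other, had -0.25 and -0.39, with 95% intervals that reached -0.90 in young and -1.04 in old mice. Hmgcs1, Mvk, Mvd, Fdps, Ggps1, Fdft1, Sqle, Cyp51, Tm7sf2, Nsdhl, Hsd17b7, Sc5d and Dhcr7 lay between -0.35 and 0.21 in both comparisons.

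Genes of control and transport showed 1 call with diet, that of Mylip in young mice. Among the 4 other control genes, the log2 fold change ran from -0.26 (Scap) to 0.18 (Srebf2) in young mice, and among all 5 from -0.27 (Insig1) to 0.47 (Insig2) in old mice. None of the 9 transport genes was called in either age, where 3.5% and 3.01% of all genes were. The sterol exporters Abcg5 and Abcg8 had 0.38 and 0.28 in young and 0.19 and 0.11 in old mice. Scarb1 had 0.22 and 0.16, and Lcat 0.20 and 0.09. Abca1 had -0.33 and -0.26, Stard4, a soluble sterol carrier, -0.13 and -0.30, and Soat2, which esterifies cholesterol in hepatocytes, -0.23 and -0.34. Npc1 and Npc2, which pass cholesterol out of the lysosome, had 0.08 and 0.10 in young mice and 0.03 and 0.15 in old mice.

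**Figure D3:**
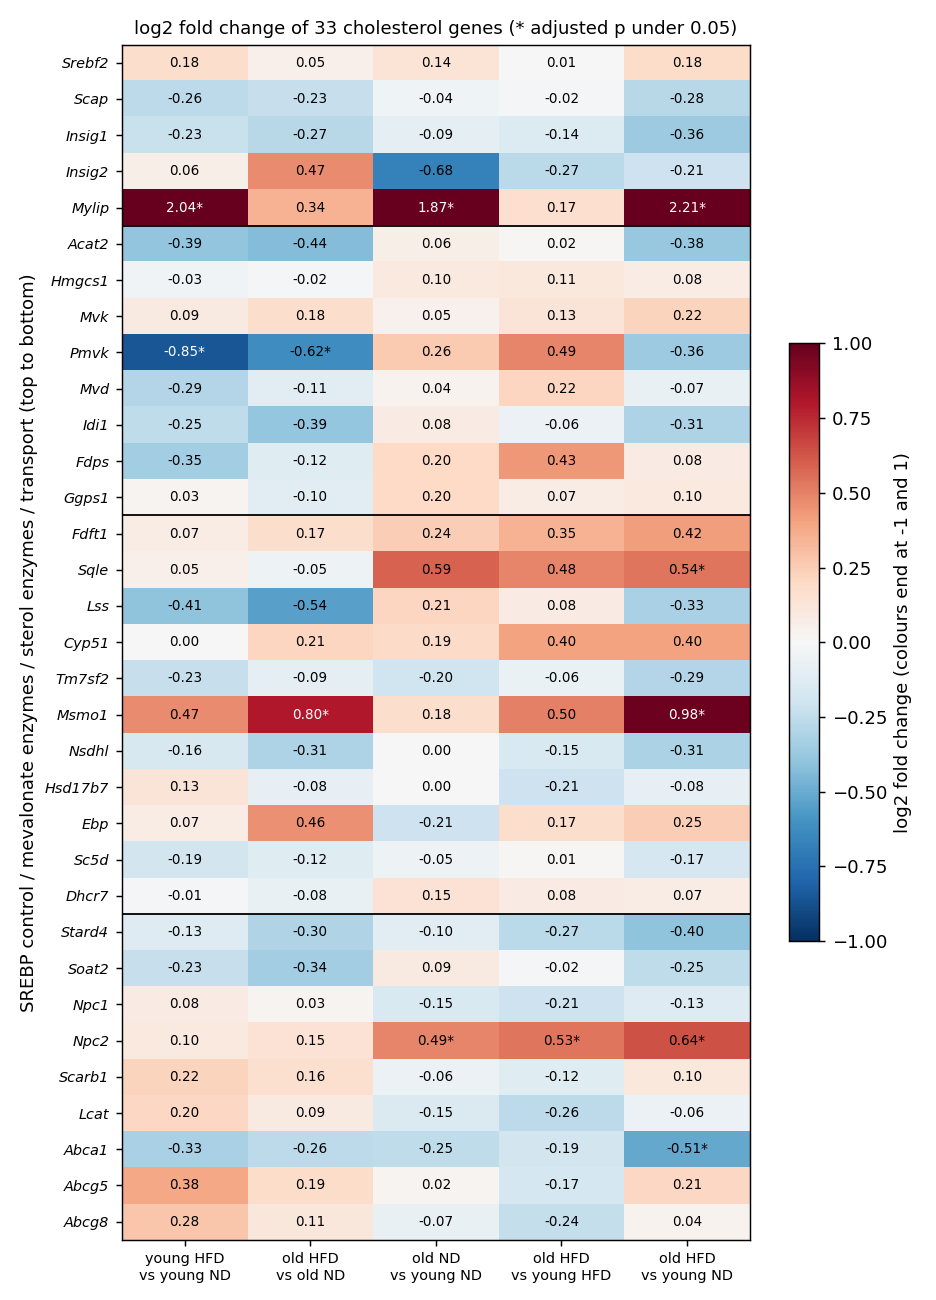
Log2 fold change of each of the 33 genes (rows, in order of role) in 5 comparisons (columns), with colour ending at -1 and 1 and an asterisk where the adjusted p was under 0.05. Pmvk is marked in both diet comparisons (-0.85 and -0.62), Npc2 in each comparison of an old with a young group, and most other cells are pale.

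Old and young mice on the normal diet differed in 2 of the 33 genes (6.06%), against 8.5% of all genes, of which 7.26% were higher and 1.24% lower in old mice. Npc2, the soluble lysosomal protein that binds cholesterol, and Mylip were higher in old ND. None of the 19 enzymes was called. Of their fold changes 15 were positive and 4 negative, with a median of 0.10 beside 0.01 for all genes, of which 50.9% were positive. The batches went opposite ways: 17 of 19 enzymes were positive in batch 1 (median 0.41) and 6 of 19 in batch 2 (median -0.10), with 8 and 2 of the 8 mevalonate enzymes.

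Npc2 (ENSMUSG00000021242, chromosome 12, 84754562 to 84773152) read 5.87, 6.12 and 6.26 log2 CPM in young ND and 6.27, 6.56 and 7.03 in old ND. The groups did not overlap, as in 3.8% of all tested genes in this comparison, but the gap between the nearest mice was narrow. The log2 fold change was 0.49 (SE 0.13, adjusted p = 0.0217, edgeR), 0.48 in batch 1 and 0.50 in batch 2. It was not called without young ND replicate 5, old ND replicate 2 or old ND replicate 3 (0.48, 0.46 and 0.41), with adjusted p from 0.00773 to 0.0630 over the 24 fits. The call was also lost with limma on log2(FPKM + 1) and in each batch alone.

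Mylip read 0.62, 2.77 and 4.52 log2 CPM in old ND, against the -1.89, 0.56 and 2.54 of young ND, and the groups overlapped. The 3 batch 1 mice of young ND read -1.89, -1.60 and -0.46 and the 2 of old ND 0.62 and 1.59, while in batch 2 the highest young ND mouse read 2.54 and the lowest old ND mouse 2.58. The log2 fold change was 1.87 (SE 0.47, adjusted p = 0.0156, edgeR), 2.80 in batch 1 and 1.48 in batch 2. The call was lost without the batch term and with limma on FPKM with either pseudocount. Over the alternatives other than leaving out 1 mouse, the log2 fold change ran from 0.21 to 2.80. Without old ND replicate 4 it was 1.51 and was not called (adjusted p = 0.0698, from a range of 0.00832 to 0.0698 over the 24 fits). Without that mouse and old HFD replicate 2, the called genes were Pmvk, Mylip and Abcg5 (3) for diet in young mice, Pmvk (1) for diet in old mice, Sqle and Npc2 (2) for age on ND and 0 for age on HFD, where 10.6%, 2.61%, 6.08% and 1.46% of all genes were called.

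Among the genes that did not pass, Sqle, which oxidizes squalene, had 0.59 (SE 0.19, adjusted p = 0.0575) and Insig2 -0.68 (SE 0.26, adjusted p = 0.105) in old ND over young ND. Sqle (ENSMUSG00000022351, chromosome 15, 59315077 to 59331192) read 5.86, 6.44 and 6.91 log2 CPM in young ND and 6.69, 6.95 and 7.5 in old ND. Insig2 read 7.85, 8.30 and 8.45 in young ND and 6.99, 7.63 and 8.08 in old ND. Both pairs of groups overlapped. Without the filter on low counts, or with only the mice of these groups in the model, both genes were called and the count was 4 (12.1%), where 6.35% and 10.8% of all genes were called.

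On the high-fat diet, old and young mice differed in 1 of the 33 genes (3.03%), Npc2, where 2.24% of all genes were called, 1.82% higher and 0.42% lower. Npc2 read 6.00, 6.09 and 6.62 log2 CPM in young HFD and 6.22, 6.65 and 7.08 in old HFD. Young HFD replicate 5, at 6.62, was the only mouse of its group above the lowest old HFD mouse. The log2 fold change was 0.53 (SE 0.13, adjusted p = 0.0356, edgeR), 0.49 in batch 1 and 0.53 in batch 2. Among 11 alternatives other than leaving out 1 mouse, 8 lost the call. They included no batch term, a replicate block, limma on FPKM with either pseudocount, and only the mice compared. The call was lost in 10 of 24 fits that left out 1 mouse, those without young HFD replicate 1, 2, 3, 4 or 6, young ND replicate 5 or 6, or old HFD replicate 2, 4 or 6, where the fold change ran from 0.47 to 0.54 and adjusted p reached 0.106 (0.00701 at the lowest over all 24). Of the 19 enzymes 15 had positive fold changes (51.3% of all genes) and 0 were called, with a median of 0.11, and by batch 17 were positive in batch 1 and 10 in batch 2. No gene of the 33 had groups that did not overlap, where 0.802% of all genes did. In the diet comparison of old mice that share was 1.26%, also with 0 of the 33.

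Old HFD and young ND, the groups that differ in age, substrain and diet at once, differed in 5 of the 33 genes (15.2%), against 30.2% of all genes, with 17.3% higher and 12.9% lower. Msmo1, Sqle, Npc2 and Mylip were higher in old HFD and Abca1 was lower. Groups that did not overlap were found in 0 of the 33 genes and in 7.26% of all genes. Without old ND replicate 4 and old HFD replicate 2 the count was 9 (27.3%, against 30.2% of all genes in that fit), with Srebf2, Pmvk, Cyp51 and Abcg5 added. Old HFD replicate 2 was picked in part for its low Abcg5, so the Abcg5 call is not independent of that choice.

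The level of Msmo1 in old HFD was 1.97-fold that of young ND, or 0.98 on the log2 scale (SE 0.19, adjusted p = 0.00104, edgeR), 1.11 in batch 1 and 0.82 in batch 2. Old HFD replicate 6, at 7.74, lay within the young ND range and the other 5 mice lay above it. Sqle, at 6.30, 7.08 and 7.53 log2 CPM in old HFD, had 0.54 (SE 0.19, adjusted p = 0.0366), 0.38 in batch 1 and 0.69 in batch 2. Its call was lost without young ND replicate 3, 4 or 6 or old HFD replicate 1, 4 or 5, where the fold change ran from 0.44 to 0.52 and adjusted p reached 0.0942 (0.0119 at the lowest over the 24 fits). Abca1 (ENSMUSG00000015243, chromosome 4, 53030787 to 53159895) read 7.55, 7.77 and 7.87 in young ND and was at 6.76, 7.19 and 7.62 in the old HFD mice. The fold change was -0.51 on the log2 scale (SE 0.13, adjusted p = 0.00578), -0.60 in batch 1 and -0.45 in batch 2. Young HFD and old ND lay between, with medians of 7.41 and 7.43, and neither differed from young ND by the test (adjusted p = 0.141 and 0.260). Npc2 had 0.64 (SE 0.13, adjusted p = 0.00156) and Mylip 2.21 (SE 0.48, adjusted p = 0.00204), and the calls of Msmo1, Npc2, Mylip and Abca1 held in all 24 fits that left out 1 mouse. Without the batch term Mylip (2.12, adjusted p = 0.0761) and Sqle (0.52, adjusted p = 0.0784) were not called, nor was Sqle with only the mice of these groups (adjusted p = 0.0727).

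Markers of other liver cells were higher in several comparisons in which Mylip or Npc2 was higher. The sum of 8 macrophage markers ran from 1.61 to 77 CPM in young ND (median 23.6), 14.3 to 189 in young HFD (median 109). It reached 59.9 to 1214 in old ND (median 113), and old HFD mice held 86.8 to 638 (median 138). In old ND over young ND, 8 of 8 macrophage markers, 4 of 6 endothelial, 5 of 6 stellate, 1 of 2 tested T lymphocyte and 1 of 1 tested B lymphocyte markers and Ptprc of all leukocytes were called higher. In old HFD over young ND these counts were 8, 6, 5, 2, 1 and 1, while of 5 hepatocyte markers Apoa1 was called higher and Cps1 lower. High-fat diet in young mice raised 1 macrophage marker (Cd5l), 1 endothelial (Stab2) and 1 stellate (Dcn), diet in old mice none, and old HFD over young HFD 1 B lymphocyte marker. The 1 cholangiocyte marker with enough reads was called in no comparison of groups. Gzmk and Cd79a had 0 reads in all young ND mice, and no macrophage marker was at 0 throughout a group. In old HFD over young HFD, where Npc2 was called, 0 of 8 macrophage, 0 of 6 endothelial and 0 of 6 stellate markers were called. The part of these cells in the results for Mylip and Npc2 was not tested.

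**Figure D4:**
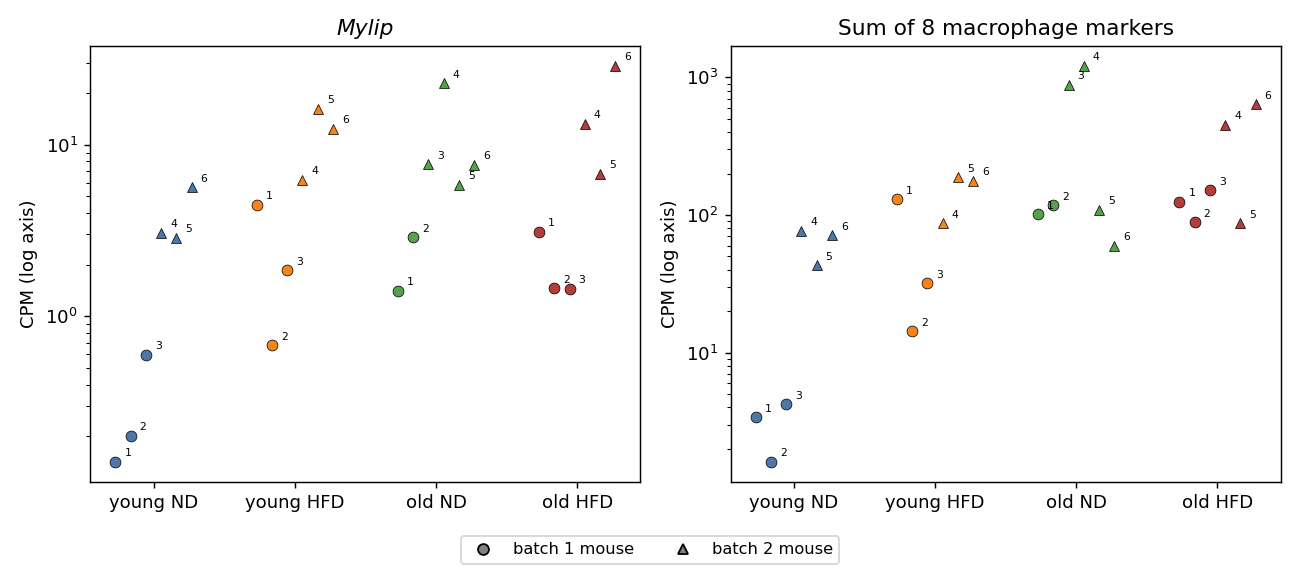
Mylip (left) and the sum of 8 macrophage markers (right) in CPM on log axes for each mouse by group, numbered by replicate, with circles for batch 1 and triangles for batch 2. Batch 1 young ND mice are lowest in both panels, and old ND replicate 4 (1214 CPM of markers) and old HFD replicate 6 are the highest mice of their groups in both.

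Between batches, 8 of the 33 genes differed (24.2%), against 32.2% of all genes, of which 18% were higher and 14.2% lower in batch 2. This contrast was read from the same model after the data had been seen. Mylip was higher in batch 2 by 2.75 on the log2 scale (SE 0.35, adjusted p = 2.08e-05, edgeR). Macrophage markers were higher in batch 2 for 7 of 8, endothelial for 6 of 6, stellate for 4 of 6, the tested B lymphocyte marker and Ptprc, and 2 of 5 hepatocyte markers were lower. Of the enzymes, Idi1 (-0.96), Hmgcs1 (-0.54), Acat2 (-0.48) and Tm7sf2 (-0.36), a sterol reductase, were lower in batch 2, and 17 of 19 fold changes were negative. Stard4 was lower by 0.54 while Soat2 and Npc2 were higher by 0.35 and 0.25.

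Mice of one group differed widely in the enzymes. The summed CPM of the 19 enzymes ran from 2751 to 4154 in young ND and 2492 to 3728 in young HFD, and among old mice from 2230 to 4947 on ND and 2394 to 4661 on HFD, so the highest mouse had 1.51, 1.5, 2.22 and 1.95 times the lowest. The enzymes tended to be high or low in the same mouse, and the same count over all genes was not made. Young ND replicate 5 was the highest of its group in 14 of 19 enzymes and old ND replicate 2 in 14, while young HFD replicate 6 was lowest in 15 and old ND replicate 4 in 12. Old HFD replicate 1 was highest in 12 and replicate 6 lowest in 9. In each group the mouse with the lowest enzyme sum also had the lowest hepatocyte marker sum (83440 CPM in young ND replicate 6, 62650 in young HFD replicate 6, 38040 in old ND replicate 4 and 74820 in old HFD replicate 6), and the part of this in the enzymes' levels was not tested.

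The spread between mice was wider in old groups. The median SD of an enzyme's log2 CPM was 0.284 in young ND and 0.258 in young HFD, against 0.382 for old ND and 0.482 for old HFD (n = 6 each), beside 0.238, 0.291, 0.338 and 0.543 for all genes. Old HFD had the largest SD for 14 of 19 enzymes, and for 73.3% of all genes. Idi1 had the largest SD of the 19 enzymes in each group but young ND, where Mvd did (0.564). Idi1 read 4.06, 5.98 and 6.97 log2 CPM as the lowest, median and highest old HFD mouse, with an SD of 1.22. In old ND it read 5.22, 5.82 and 7.45, and in young ND 5.62, 6.49 and 6.56. The lowest old HFD mice, replicates 4 and 6, were both in batch 2, and the batch 1 mice of old ND held its highest values, 7.01 and 7.45.

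**Figure D5:**
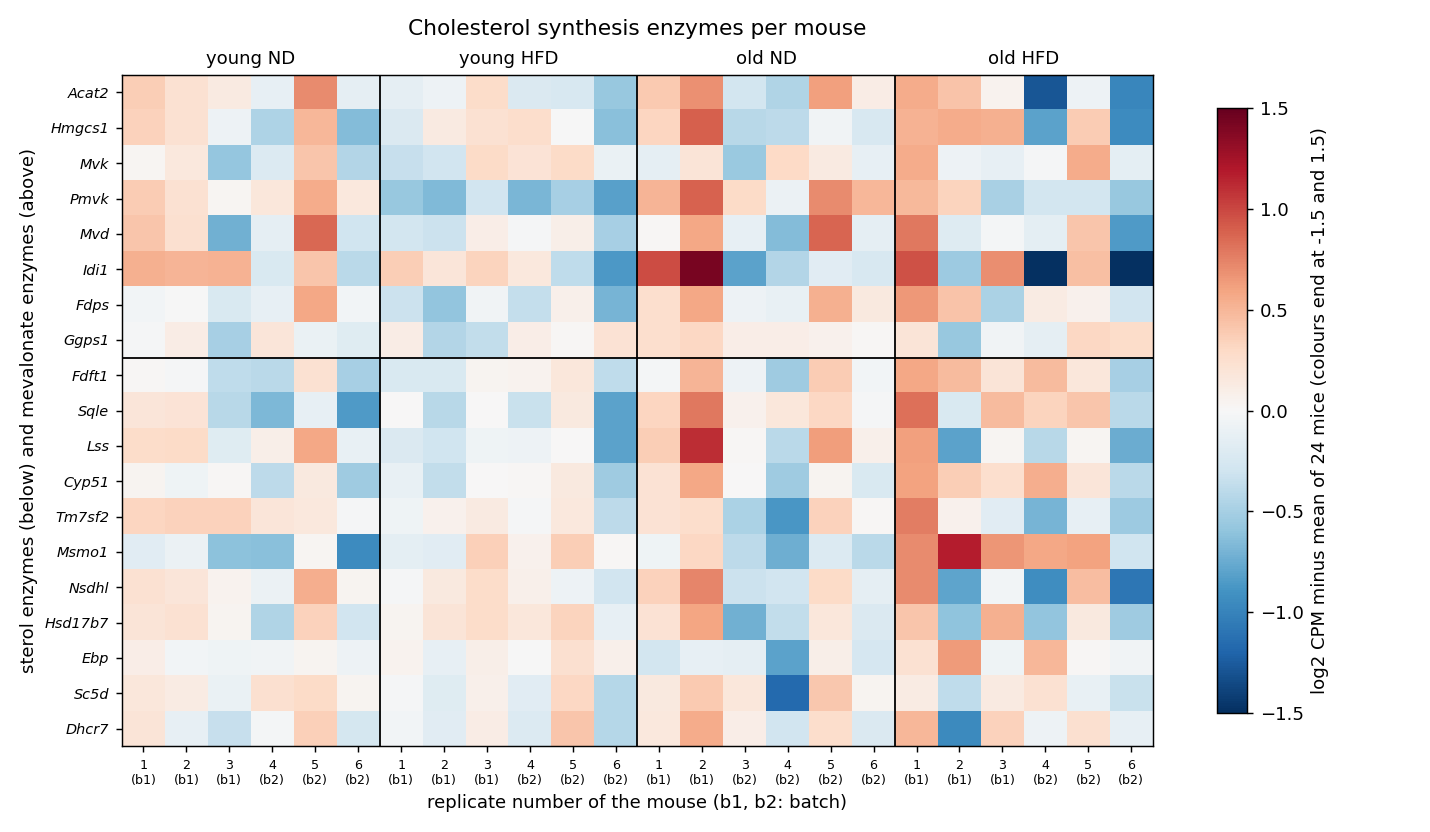
Log2 CPM of the 19 synthesis enzymes (rows) in each of 24 mice (columns, by group and batch) as the difference from the mean of all mice, with colour ending at -1.5 and 1.5. Columns such as old ND replicate 2 and old HFD replicate 1 are high, and young HFD replicate 6 low, across most enzymes, and Idi1 has the strongest colours.

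A further 35 genes of the same pathways, from SREBP processing to sterol transfer, were followed, of which 33 were tested. Diet in young mice changed 3 (9.09%, against 3.5% of all genes). Vldlr, a receptor that takes up triglyceride-rich lipoproteins, rose by 2.47 on the log2 scale (SE 0.40, adjusted p = 0.00118, edgeR). Its lowest, median and highest mouse read -0.02, 0.37 and 1.81 log2 CPM in young ND and 1.57, 2.97 and 3.86 in young HFD. Sort1, a sorting receptor of the secretory pathway, fell by 1.68 (SE 0.30, adjusted p = 0.00314), from 4.35, 4.77 and 5.13 to 2.03, 3.33 and 3.53. Every young HFD mouse was below every young ND mouse in Sort1. Nceh1, a cholesteryl ester hydrolase, rose by 0.73 (adjusted p = 0.0371).

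In old mice diet changed 2 of these genes (6.06%, against 3.01% of all genes), Vldlr by 1.82 (adjusted p = 0.0202, edgeR) and Sort1 by -1.26 (adjusted p = 0.0252). In Sort1 the fold change was -2.46 in batch 1 and -0.47 in batch 2. Old ND differed from young ND in 3 (9.09%, close to the 8.5% of all genes), all higher: Soat1, which esterifies cholesterol in macrophages and many other cells, by 3.05, Gramd1b, a carrier of sterol from the plasma membrane, by 2.42 and Abcg1, a sterol exporter, by 1.99. All 3 were at low levels, with young ND medians of -1.07, -1.27 and 0.52 log2 CPM. In old ND all 3 were highest in replicate 4 (10.7, 2.94 and 20.5 CPM), the mouse with the highest macrophage marker sum, and 8 of 8 macrophage markers were called higher in this comparison. The part of those cells in these 3 results was not tested. Old HFD differed from young HFD in 0 of 33 by this test (2.24% of all genes), with 1 at an unadjusted p under 0.05 (Nr1h2, an LXR gene at -0.26, named after its value was seen), as had 2848 of all 13583 genes. Between old HFD and young ND 9 were called (27.3%, against 30.2% of all genes), among them Vldlr, Abcg1, Soat1 and Gramd1b, which were higher, and Mbtps1, Rnf139, Lipa and Sort1, which were lower. Mbtps1, the protease that first cuts SREBP, had -0.54, and Rnf139, a ubiquitin ligase of the endoplasmic reticulum, -0.54. The 7 further genes of synthesis and isoprenoid branches were called in none of these 5 comparisons.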

How the data were processed

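RNA of isolated hepatocytes from 24 mice was analysed. Per the labels and the study's methods, the authors aligned reads to mm10 with STAR 2.7.3a after FastQC 0.11.8 and made the deposited count table with HTSeq 0.11.2 (whole reads per gene, not normalized, strand setting not given in the sources used here). The study's methods name Cufflinks for FPKM, and the deposited FPKM values were labelled as adjusted between batches. They served only as an alternative, since the gene lengths they imply follow whole gene spans (median ratio 0.964) rather than exons (4.98). How they were scaled is not settled here. Total counts were 9200332 to 22185069 per mouse, and intervals cover the spread between mice.

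Counts were fitted in edgeR 4.0.16 (R 4.3.3) with TMM scaling, a filter on low counts by group, and group plus batch as terms over all 24 mice. The quasi-likelihood test gave p-values, adjusted over 13583 genes after Benjamini and Hochberg with a threshold of 0.05. Log2 CPM used a prior count of 2. SE is the log2 fold change over the square root of F. Comparisons were diet within age, age within diet, old HFD against young ND, and the interaction. Alternatives were no filter, other scaling, no batch term, a replicate block, each batch alone, DESeq2 1.42.0, limma 3.58.1 on log2(FPKM + 1) or log2(FPKM + 0.1), only the mice compared, and leaving out each mouse. Leaving out old ND replicate 4 with old HFD replicate 2 was chosen after seeing the data. Scripts were tested on simulated data. Members and lists were chosen with earlier results of these data known. By rule all 33 genes are named, those called in any comparison with values per group and full statistics and the others by ranges and counts, and related genes where called, except 1 that is not reported here. The genes short of the threshold that are given with values (Sqle and Insig2 for age, Lss, Acat2 and Ebp for diet) were picked after seeing them. Python 3.11.15 drew the plots.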

Additional observations from a re-analysis of the deposited data

Results flagged for a closer look

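In 8 of 132 sets of 6 mice (33 genes in 4 groups), 1 mouse lay far from the other 5 by Dixon's test at 95%, where chance gives about 6.6. Values are log2 CPM. Fdps read 8.18 in young ND replicate 5, with the nearest mouse at 7.60. Stard4 read 6.89 in young ND replicate 4, with the nearest at 7.17. Lss read 5.37 in young HFD replicate 6, with the nearest at 5.87. Npc2 read 6.62 in young HFD replicate 5, with the nearest at 6.17. Old ND replicate 4, the mouse with the lowest hepatocyte marker sum, read 8.47 in Sc5d and 4.79 in Abcg8, where the nearest mice were at 9.68 and 5.96. Old HFD replicate 2 read 6.28 in Scarb1 and 4.77 in Abcg5, where the nearest were at 7.05 and 6.03.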

How the results depend on the processing

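No fold change of a called gene among the 33 reversed under any alternative run, and the related genes were not run under them. Counts of the 33 genes called are given here in the order diet in young mice, diet in old mice, age on ND, age on HFD and old HFD against young ND, where the reported counts were 2, 2, 2, 1 and 5. The share of all genes called in the same fit follows in the same order, and it moved between fits as well (reported fit 3.5%, 3.01%, 8.5%, 2.24% and 30.2%). They were 1, 1, 1, 0 and 3 without the batch term (1.28%, 1.96%, 4.62%, 0.854% and 22.4%). With 2 to 4 mice a group they were 0, 0, 0, 0 and 2 in batch 1 alone (0.96%, 0.111%, 0.687%, 0.0665% and 6.79%) and 0, 0, 0, 0 and 0 in batch 2 alone (0.0632%, 0.112%, 0.014%, 0% and 4.33%). They were 1, 1, 0, 0 and 5 with limma on log2(FPKM + 1) (1.83%, 1.91%, 0.932%, 0.697% and 21.7%), 1, 1, 1, 0 and 5 on log2(FPKM + 0.1) (2.02%, 2.17%, 3.21%, 0.621% and 22.8%), and 6, 0, 4, 0 and 4 with only the mice compared (18.6%, 0.119%, 10.8%, 0.386% and 17.4%). Without old ND replicate 4 and old HFD replicate 2 they were 3, 1, 2, 0 and 9 (10.6%, 2.61%, 6.08%, 1.46% and 30.2%). Without the count filter they were 2, 3, 4, 1 and 6 (4.56%, 3.43%, 6.35%, 3.82% and 14.3%), and the interaction gave 1 (Mylip) among 587 of 32336 genes. DESeq2 gave 2, 3, 3, 2 and 7 (8.13%, 8.35%, 9.19%, 5.52% and 27.3%), and RLE scaling 2, 2, 3, 1 and 7 (3.42%, 3.52%, 8.62%, 2.41% and 30.6%). Leaving out 1 mouse gave 1 to 2, 0 to 2, 1 to 3, 0 to 2 and 4 to 7, and 0 for the interaction. The share of all genes called also moved widely across these fits. With diet it ran from 1.05% to 7.23% in young mice and from 0.607% to 5.94% in old mice. For age on ND, 586 of 13746 genes were called at the lowest and 1592 of 13802 at the highest. For age on HFD the share was 0.289% to 5.86%, and for old HFD against young ND 24.1% to 34.1%. The cause of these differences was not tested. Without the batch term the adjusted p of Mylip was 0.342 for diet in young mice and 0.196 for age on ND.

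Replicate numbers did not pair mice across groups: correlations of deviations ran down to -0.32 over 36 pairs and averaged -0.00199 once batch means were removed, and 7 of 24 mice correlated best with their own number. With a replicate block in place of batch the counts were 2, 2, 3, 0 and 5 (2.08%, 3.28%, 9.94%, 0.964% and 25.6%): Npc2 was lost for age on HFD (0.53, adjusted p = 0.0914), Sqle was gained for age on ND, and the other calls held. Depth limits Mylip most, with 3 to 401 reads per mouse. Age and substrain, and cell number and RNA per cell, cannot be told apart.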
